A study of Mus musculus with 4 samples.

Results

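Nucleotide synthesis and one-carbon metabolism were described through 37 genes chosen by symbol: enzymes of purine, pyrimidine and deoxynucleotide production, of serine synthesis and of the folate cycle. All 37 were among the 24411 gene symbols of the deposited tables, and all 37 passed the filter on low reads that left 12617 genes for testing. RNA was sequenced from B220-positive B cells sorted out of mouse bone marrow (tibiae and femur), with 2 libraries of genotype wildtype and 2 of genotype Arid5b overexpression; B220 is a surface form of CD45 found on B lineage cells. Arid5b encodes a chromatin regulator of the ARID family. The labels name no strain, age, sex or treatment and do not say what drives the extra Arid5b or whether animals were pooled, so p-values measure the spread between these libraries.

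Cells make purines by building a ring stepwise on phosphoribosyl pyrophosphate, which yields IMP and then AMP and GMP, and they make pyrimidines through orotate and UMP. Ribonucleotide reductase turns ribonucleotides into deoxynucleotides, and thymidylate synthase supplies the thymidine needed for DNA. Serine and folate provide the carbon units for the purine ring and for thymidylate. In bone marrow, B cell precursors pass through bursts of division and then rest, and several of these enzymes are known to be made mainly in dividing cells, while others are made in resting cells as well.

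Levels are given as normalised reads, which are reads assigned to a gene divided by a size factor for the library. Differences and their standard errors (SE) are on the deposited log2 scale, which compresses genes with few reads. A gene is said to rise or fall where the limma adjusted p was under 0.05 over all 12617 genes. Library totals ran from 14196665 to 20356404 reads, of which 25.7% to 30.5% were of the ribosomal RNA Rn45s. Counting error was still small for most members. The fewest reads of a member in any library were 8, for Dctd, and 4 members had under 50 reads in some library.

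The libraries did not behave as groups, and this touches every result below. Arid5b stood at 5963 and 6813 normalised reads in wildtype libraries 1 and 2, at 136339 in overexpression-labelled library 1 and at 5454 in overexpression-labelled library 2. Thus only overexpression-labelled library 1 was high in Arid5b (difference 4.41, SE 0.126, limma adjusted p = 1.28e-11), while overexpression-labelled library 2 went against its label (-0.22, SE 0.145, adjusted p = 0.493). Wildtype library 1 had 24 reads of Xist and 3260 of the Y-linked Ddx3y, against at least 68540 and at most 1 in the other libraries. All 7 B lineage markers summed here (Ptprc, Cd79a, Cd79b, Ebf1, Pax5, Blnk and Cd22) had reads in every library. Their summed level ran from 188023 to 200704 normalised reads in the other 3 libraries and was 102976 in overexpression-labelled library 1, where 3 of the 7 rose and 4 fell. There Ptprc, which encodes CD45, fell from 71134 and 76808 to 13330 normalised reads, while Cd79b rose from 6899 and 6465 to 14345 and Pax5 from 5808 and 5934 to 11486. Over the 7 markers the median difference was -0.92, and the differences ran from -2.99 to 1.1. Each overexpression-labelled library was therefore also compared with wildtype by itself. Such a fit takes the spread of the lone library from the wildtype pair and from a prior across all tested genes. The fit tests that library and not the genotype.

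With both groups compared as labelled, 0 of the 37 members passed the threshold, and 0 of all 12617 genes did (0% of the genes tested; limma-voom also called 0). By limma 280 genes had an unadjusted p under 0.05, among them 1 member, Mthfd1, whose difference was 1.23 (SE 0.445, limma adjusted p = 0.726), and by limma-voom 186 genes and 2 members did. The members' median difference was 0.72, beside -0.078 over all tested genes. The overexpression-labelled libraries both lay above both wildtype libraries in 14 members (37.8%), where 19.6% of tested genes did so, and both lay below in 4 members (10.8%), where 23% of tested genes did so. The 14 were Paics, Adsl, Adss, Hprt, Aprt, Cad, Dhodh, Rrm1, Rrm2, Rrm2b, Tyms, Dtymk, Psph and Mthfd1, and the 4 were Ctps2, Tk1, Samhd1 and Mthfd2. Any margin counts here. Against wildtype the members' median difference was 1.27 in overexpression-labelled library 1 and 0.044 in overexpression-labelled library 2.

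In overexpression-labelled library 1, 29 of 37 members rose and 4 fell (78.4% and 10.8%), where 26.8% of all tested genes rose, 34.4% fell and 61.2% did either. The median difference of the members was 1.27, beside -0.15 over all tested genes. Of the members, 22 were at least 1 log2 unit higher, as were 18.3% of tested genes. The filter on low reads asks for reads in 2 libraries. It drops genes with reads in overexpression-labelled library 1 alone but keeps genes that lack reads there alone. The shares and the median of all tested genes therefore lean towards falls. Together the 37 genes held 52866 and 53456 normalised reads in the wildtype libraries, 131836 in overexpression-labelled library 1, which is 2.48 times the wildtype mean, and 52728 in overexpression-labelled library 2. Overexpression-labelled library 1 was the highest of the 4 libraries in 32 members (38.3% of tested genes) and the lowest in 4 members (47.8% of tested genes). With no filter on low values, 14 of the 33 calls were kept, in a fit that called 14.8% of all genes in place of 61.2%: the rises of Atic, Cad, Dck, Dtymk, Gart, Hprt, Impdh1, Mthfd1l, Psat1, Rrm1, Rrm2, Shmt2 and Tyms and the fall of Tk2.

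**Figure D1:**
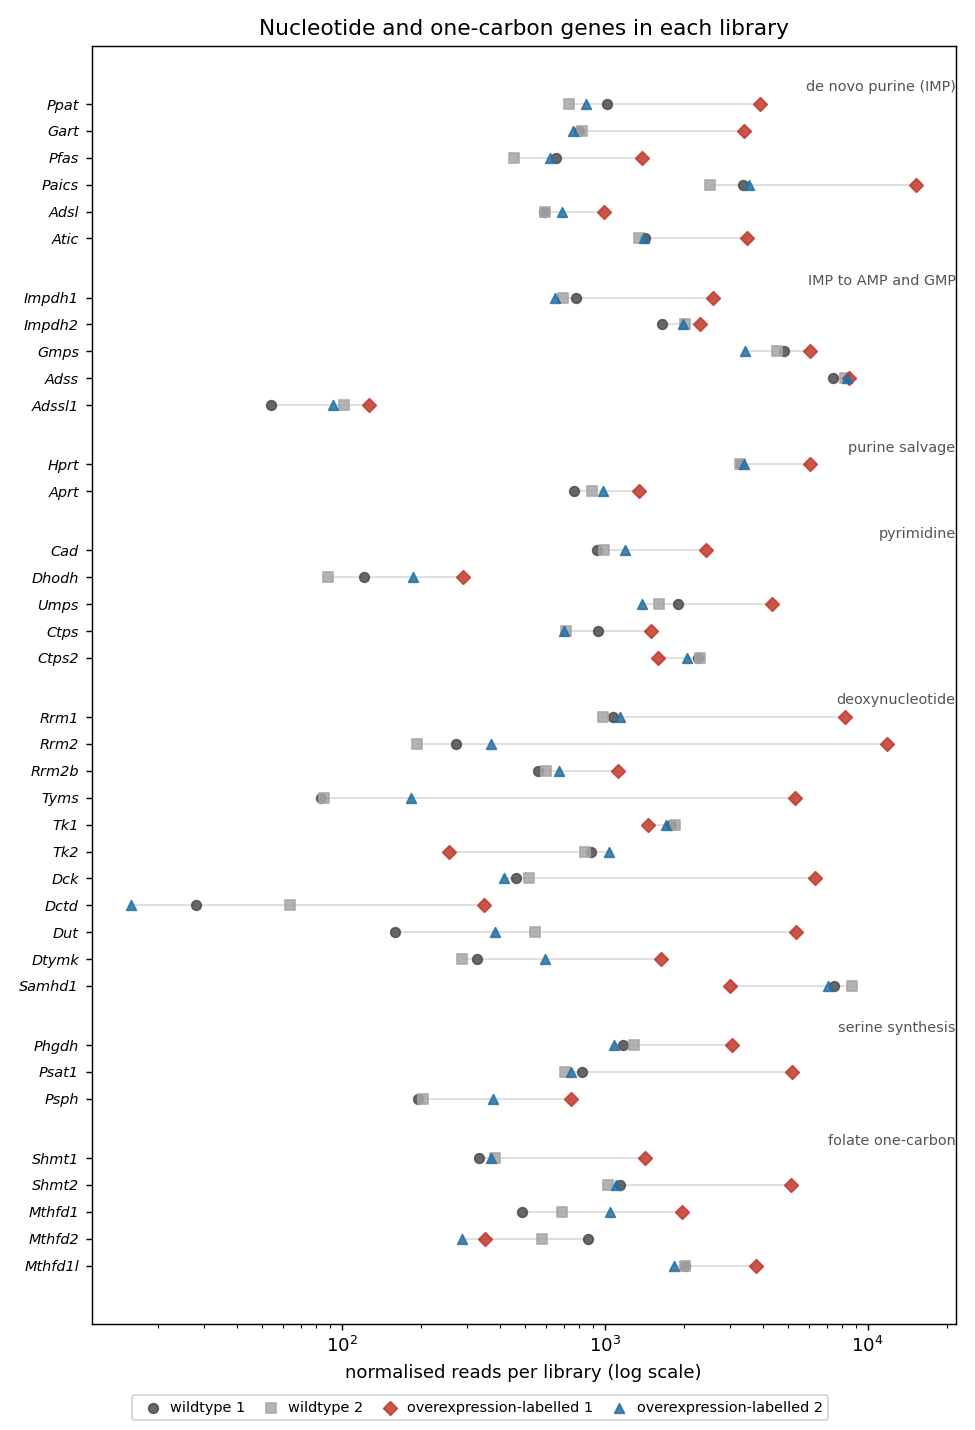
Normalised reads (log axis) of the 37 members in each of the 4 libraries, grouped by pathway, with a grey line from the lowest to the highest library. Overexpression-labelled library 1 (red diamonds) is the highest library in 32 members, and Tyms and Rrm2 span the widest range.

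The widest range was among enzymes of deoxynucleotide production. Of 11 such genes, 8 lay above the wildtype mean and 3 below it in overexpression-labelled library 1. Their median difference was 2.22, beside -0.15 over all tested genes, of which 5717 of 12617 lay above. Tyms, thymidylate synthase, stood at 83.7 and 85.7 normalised reads in wildtype, 5313 in overexpression-labelled library 1 and 183.1 in overexpression-labelled library 2. Overexpression-labelled library 1 was thus far above the other libraries, which had few reads of Tyms. It was 62.7-fold above the wildtype mean (difference 5.27, SE 0.277, limma adjusted p = 3.33e-09). Rrm2, the small subunit of ribonucleotide reductase that is tied to S phase, had 272.9 and 193.5 normalised reads in wildtype, 11819 in overexpression-labelled library 1 and 368.2 in overexpression-labelled library 2. That placed overexpression-labelled library 1 at 50.7-fold the wildtype mean (difference 5.36, SE 0.232, limma adjusted p = 5.14e-10). Rrm2 lies on chromosome 12 from 24708241 to 24714146 and Tyms on chromosome 5 from 30058202 to 30073617 (GRCm38, GENCODE M21). Its partner Rrm1, the large subunit, rose less, from 1078 and 986.7 to 8184 normalised reads, which is 7.93-fold (difference 2.92, SE 0.170). In overexpression-labelled library 2 Rrm1 stood at 1146.

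Enzymes that salvage or protect deoxynucleotides followed. Dck, deoxycytidine kinase, went from 460.2 and 516.8 normalised reads in wildtype to 6331 in overexpression-labelled library 1, with 413.5 in overexpression-labelled library 2. The rise was 13-fold (difference 3.54, SE 0.20, limma adjusted p = 6.73e-09). Dut, the dUTPase that keeps uracil out of DNA, rose to 5334 normalised reads (difference 3.90, SE 0.414), and here the wildtype libraries themselves were 3.4-fold apart at 159.4 and 541.7, with 382 in overexpression-labelled library 2. The call of Dut was lost with a robust prior and with no filter. Dtymk, thymidylate kinase, rose from 326.7 and 287.4 to 1644 (difference 2.22), and in overexpression-labelled library 2 it was 594.6, above both wildtype libraries without passing the threshold (0.84, SE 0.280, adjusted p = 0.17). Dctd, dCMP deaminase, rose by 2.09 (SE 0.409) from low levels of 27.9 and 63.6 to 347.1 normalised reads. Rrm2b, the reductase subunit tied to p53 and to cells outside S phase, rose by 0.89, from 555.9 and 597 to 1121.

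Members of the same pathway that went the other way, or stayed, were Tk2, Samhd1 and Tk1. Tk2, the mitochondrial thymidine kinase, fell from 888.6 and 843 normalised reads in wildtype to 255.7 in overexpression-labelled library 1, and was 1042 in overexpression-labelled library 2. The fall came to 3.39-fold (difference -1.56, SE 0.248, limma adjusted p = 1.21e-04). Samhd1, which degrades deoxynucleotide triphosphates, fell from 7475 and 8701 to 2995 (difference -1.41, SE 0.144, adjusted p = 2.25e-06), while overexpression-labelled library 2 had 7061. Tk1, the cytosolic thymidine kinase known to be tied to S phase, did not follow Tyms and Rrm2. It had 1795 and 1852 normalised reads in wildtype, 1459 in overexpression-labelled library 1 and 1711 in overexpression-labelled library 2, and its difference of -0.31 (SE 0.177, adjusted p = 0.144) did not pass. Tk1 (chromosome 11, 117815526 to 117826092) shares 83 exon bases with Afmid on the opposite strand, 1.6% of its exons.

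**Figure D2:**
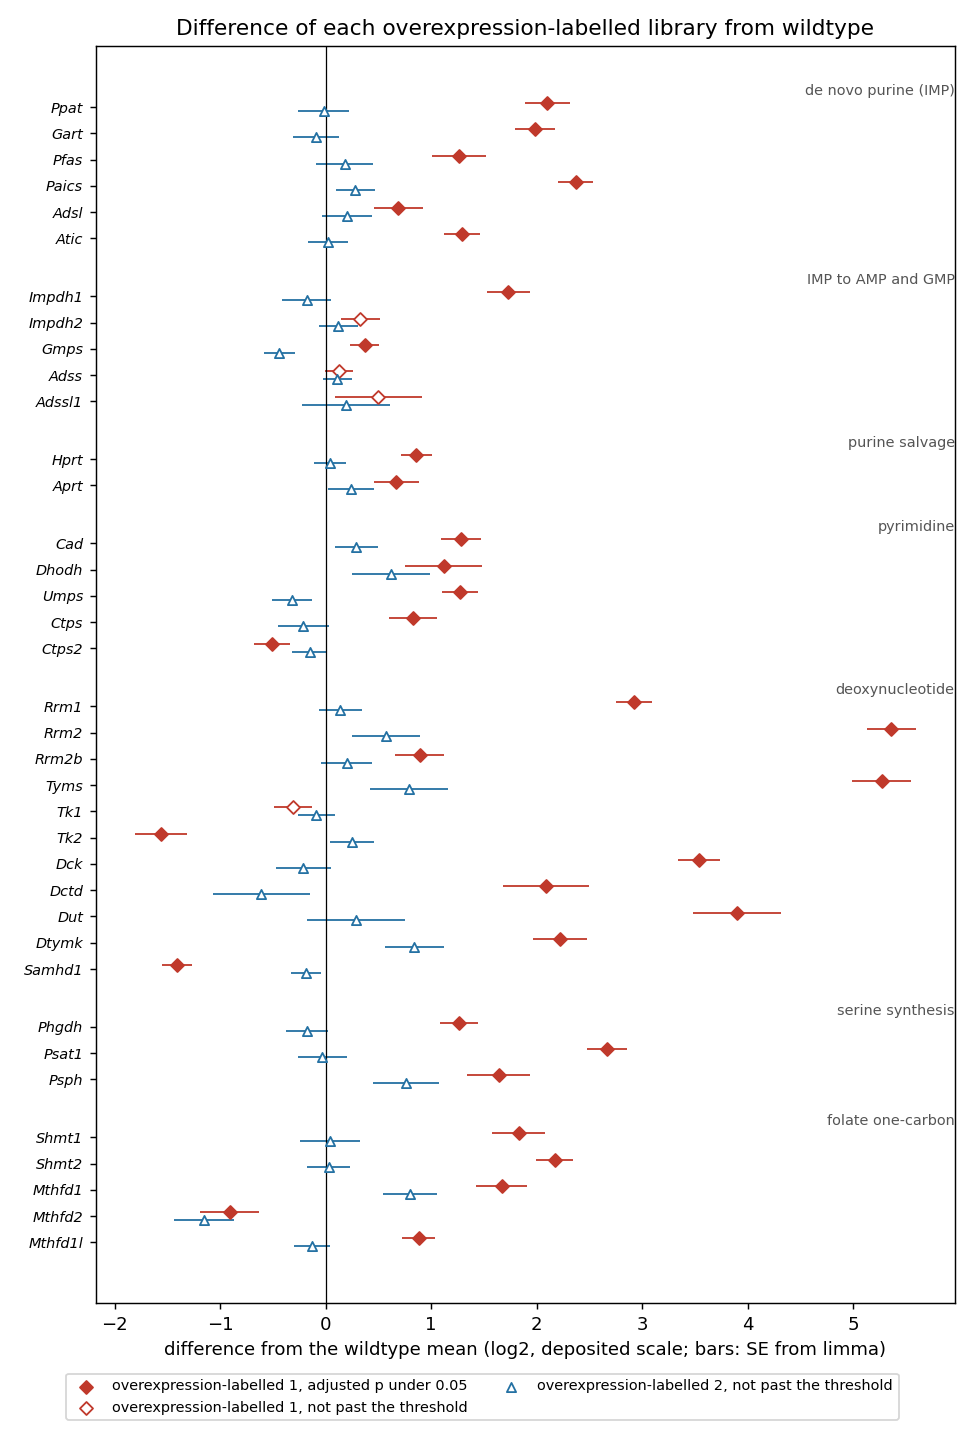
Difference of each overexpression-labelled library from the wildtype mean (log2, deposited scale) for the 37 members, with SE from limma. Filled symbols passed the threshold: 33 in overexpression-labelled library 1 (red), from -1.56 for Tk2 to 5.36 for Rrm2, and 0 in overexpression-labelled library 2 (blue).

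All 6 enzymes of the route from phosphoribosyl pyrophosphate to IMP lay above the wildtype mean in overexpression-labelled library 1. Their median difference was 1.64, beside -0.15 over all tested genes, of which 5717 of 12617 lay above. Paics, which carries out steps in the middle of the route, had 3355 and 2523 normalised reads in wildtype, 15300 in overexpression-labelled library 1 and 3544 in overexpression-labelled library 2. It rose 5.21-fold (difference 2.37, SE 0.168, limma adjusted p = 6.14e-08). Ppat, the amidotransferase that opens the route, had 1020 and 729.7 in wildtype, 3908 in overexpression-labelled library 1 and 852.5 in overexpression-labelled library 2, and rose 4.47-fold (2.10, SE 0.214, adjusted p = 2.16e-06). Gart, which acts at several steps, rose by 1.98 from 800.9 and 820.9 to 3387 normalised reads. Atic and Pfas rose by 1.29 and 1.26, and Adsl, adenylosuccinate lyase, by 0.69 (SE 0.232, adjusted p = 0.02). Gart shares 19.7% of its exon bases with an antisense gene that has no row in the tables, and strand use in counting is not given in the sources used here.

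Ppat and Paics, which rose together, are neighbours on chromosome 5 on opposite strands. Their RefSeq starts lie 276 bases apart, and their GENCODE exons share 272 bases, which is 6.15% of the exons of Ppat and 8.67% of those of Paics, so a few reads could belong to either gene. Their promoter windows (250 bases before to 50 after the start, RefSeq, GRCm38.p6) are shown because the starts lie close together. The windows do not overlap, and each gene runs across the start of the other. Capitals mark matches, on either strand, to E2F words (TTTGGCGC, TTTCCCGC, TTTGGCGG or TTTCGCGC), the CCAAT box (CCAAT) or the E-box (CACGTG). The window of Ppat is chr5:76951529-76951828, minus strand, and that of Paics chr5:76951052-76951351, plus strand.
Ppat: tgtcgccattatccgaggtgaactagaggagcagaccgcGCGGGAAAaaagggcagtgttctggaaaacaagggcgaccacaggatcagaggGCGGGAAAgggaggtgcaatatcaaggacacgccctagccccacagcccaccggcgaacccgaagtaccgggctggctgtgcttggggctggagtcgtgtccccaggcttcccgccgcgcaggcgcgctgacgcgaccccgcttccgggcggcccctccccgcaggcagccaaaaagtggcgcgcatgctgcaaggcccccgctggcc
Paics: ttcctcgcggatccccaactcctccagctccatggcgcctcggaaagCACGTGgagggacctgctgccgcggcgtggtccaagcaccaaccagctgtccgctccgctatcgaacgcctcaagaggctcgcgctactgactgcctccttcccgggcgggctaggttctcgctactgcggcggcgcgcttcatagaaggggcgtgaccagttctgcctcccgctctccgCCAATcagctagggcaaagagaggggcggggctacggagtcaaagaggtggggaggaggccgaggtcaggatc
The capitals in the window of Ppat are 2 E2F words, and those of Paics are 1 E-box and 1 CCAAT box.

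Over all members, such letters were about as common as in other genes. A RefSeq window was found for 34 of 37 members. An E2F word was in a window of 1 of the 34 (2.9%; 5.1% of tested genes with a window, 2.4% of all windows), a CCAAT box in 15 (44.1%; 42.7% and 37.4%) and an E-box in 5 (14.7%; 11.7% and 7.2%). The ATF4 word TGATGNAAT was in 0 of the 34, beside 0.5% of tested genes and 1% of all windows. In the 41 windows of the members no match overlapped one of another motif. A match is letters only, and a lack of one says nothing about a factor.

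Beyond IMP the differences were uneven. Impdh1, an isoform of the enzyme that commits IMP to GMP, rose from 781 and 696.5 normalised reads to 2582 in overexpression-labelled library 1 (3.50-fold, difference 1.73, SE 0.203, limma adjusted p = 8.18e-06), with 645.8 in overexpression-labelled library 2. Its isoform Impdh2 had 1646 and 2023 in wildtype and 2308 and 1993 in the overexpression-labelled libraries, and did not pass (0.33, SE 0.183, adjusted p = 0.134). Impdh2 was called a rise when libraries were scaled by their totals. Gmps, GMP synthetase, rose by 0.37 (adjusted p = 0.0352) and had its lowest level in overexpression-labelled library 2, at 3416 normalised reads against 4799 and 4538 in wildtype (-0.44, SE 0.147, adjusted p = 0.168). Adss, which makes the AMP precursor, was nearly level at 7388, 8170, 8481 and 8372 in the 4 libraries. Its muscle-type counterpart Adssl1 was low throughout, at 53.8 to 126.7. The salvage enzymes Hprt and Aprt rose by 0.86 and 0.67. The X-linked Hprt was the member with the highest level per kilobase of exon in wildtype, and its wildtype libraries, which differed in Xist, were alike in it at 3275 and 3281 normalised reads.

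Of the 5 pyrimidine genes 4 lay above the wildtype mean and 1 below it in overexpression-labelled library 1. Their median difference was 1.12, beside -0.15 over all tested genes, of which 5717 of 12617 lay above. Cad, the enzyme of the opening steps, rose from 936.4 and 995 normalised reads to 2435 (difference 1.28, SE 0.191), and Umps, which forms UMP, from 1895 and 1614 to 4311 (1.27, SE 0.171). Dhodh, the mitochondrial dehydrogenase between them, rose by 1.12 from low levels of 121.5 and 88.4 to 288.5, with 187 in overexpression-labelled library 2. The CTP synthases parted: Ctps rose by 0.83 (SE 0.225, limma adjusted p = 0.00623) and Ctps2 fell by 0.51 (SE 0.169, adjusted p = 0.0192). Ctps had 942.4 and 713.1 normalised reads in wildtype and 1503 in overexpression-labelled library 1, and Ctps2 had 2269 and 2300 and then 1590. The fall of Ctps2 was lost with no filter, with recomputed size factors and with either scaling by totals, with an adjusted p of at most 0.133.

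The 3 enzymes that make serine from a glycolytic intermediate all lay above the wildtype mean in overexpression-labelled library 1. Their median difference was 1.64, beside -0.15 over all tested genes, of which 5717 of 12617 lay above. Psat1, the aminotransferase, led them, with 820.8 and 707.5 normalised reads in wildtype, 5172 in overexpression-labelled library 1 and 746.2 in overexpression-labelled library 2. It rose 6.77-fold (difference 2.67, SE 0.190, limma adjusted p = 6.56e-08). Phgdh, the dehydrogenase that starts the route, rose from 1177 and 1296 to 3042 (1.26, SE 0.180), and Psph, the phosphatase that ends it, from 195.2 and 204.5 to 743.5 (1.64, SE 0.30). Psph was also above wildtype in overexpression-labelled library 2, at 376.1, a difference of 0.76 that did not pass (SE 0.314, adjusted p = 0.264). Psph shares 10.4% of its exon bases with Cct6a on the opposite strand.

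Folate enzymes divided, and Mthfd2 stood apart from the rest. Shmt2 and Shmt1, the mitochondrial and cytosolic hydroxymethyltransferases that take a carbon unit from serine, rose by 2.17 (SE 0.177) and 1.83 (SE 0.252). Shmt2 went from 1142 and 1028 normalised reads to 5090, and Shmt1 from 332.7 and 384.2 to 1421. Mthfd1, the cytosolic enzyme, rose by 1.67 and the mitochondrial Mthfd1l by 0.88. Mthfd2, the mitochondrial dehydrogenase between Shmt2 and Mthfd1l, had 864.7 and 577.6 normalised reads in wildtype, 349.5 in overexpression-labelled library 1 and 287.5 in overexpression-labelled library 2. Both overexpression-labelled libraries thus lay below both wildtype libraries, which were themselves apart. The fall in overexpression-labelled library 1 passed (-0.91, SE 0.281, limma adjusted p = 0.0129) and was lost with no filter and when libraries were scaled by totals without Rn45s. In overexpression-labelled library 2 the difference of -1.15 (SE 0.284, adjusted p = 0.0717) did not pass, though it did by limma-voom and with library totals; over the alternatives its adjusted p ran from 0.0222 to 0.451. Mthfd1 in overexpression-labelled library 2 was at 1047 against 486.1 and 685.4 in wildtype (0.80, SE 0.255, adjusted p = 0.153), and passed by limma-voom alone. With both groups compared, Mthfd2 differed by -1.03 (SE 0.403, adjusted p = 0.726).

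The promoter windows of Psat1 and Mthfd2 are shown because each holds 3 CCAAT boxes (in capitals, on either strand) while the genes moved in opposite directions in overexpression-labelled library 1. The window of Rrm2, with 1 CCAAT box, belongs to the member with the largest difference on the deposited log2 scale; in normalised reads the ratio of Tyms was larger. They are chr19:15925010-15925309, minus strand, for the outer start of Psat1, chr6:83317555-83317854, minus strand, for Mthfd2, and chr12:24708004-24708303, plus strand, for Rrm2 (RefSeq, GRCm38.p6).
Psat1: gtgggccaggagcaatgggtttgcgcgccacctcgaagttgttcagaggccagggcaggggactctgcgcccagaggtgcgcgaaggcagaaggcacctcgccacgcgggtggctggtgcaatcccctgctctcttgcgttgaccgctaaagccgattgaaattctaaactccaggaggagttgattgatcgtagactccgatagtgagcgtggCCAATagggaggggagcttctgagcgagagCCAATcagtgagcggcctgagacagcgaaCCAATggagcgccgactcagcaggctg
Mthfd2: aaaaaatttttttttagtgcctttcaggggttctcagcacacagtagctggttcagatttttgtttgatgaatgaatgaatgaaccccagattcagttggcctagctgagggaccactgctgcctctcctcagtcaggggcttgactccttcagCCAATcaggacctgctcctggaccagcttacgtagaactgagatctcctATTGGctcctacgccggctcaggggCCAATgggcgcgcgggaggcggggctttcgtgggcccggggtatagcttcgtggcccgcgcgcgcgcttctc
Rrm2: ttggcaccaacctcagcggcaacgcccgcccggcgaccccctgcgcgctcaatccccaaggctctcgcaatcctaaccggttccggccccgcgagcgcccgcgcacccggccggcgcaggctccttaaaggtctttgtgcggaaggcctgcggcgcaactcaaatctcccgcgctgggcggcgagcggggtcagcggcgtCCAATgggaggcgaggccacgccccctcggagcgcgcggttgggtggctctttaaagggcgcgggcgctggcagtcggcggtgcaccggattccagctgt

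Within each library, pairs of related enzymes were set against each other as a log2 ratio, described without a test. The ratio of Rrm2 to Rrm2b was -1.02 and -1.62 in wildtype, 3.40 in overexpression-labelled library 1 and -0.87 in overexpression-labelled library 2. Per kilobase of exon the linear ratio was 1.62 and 1.07 in wildtype, 34.7 in overexpression-labelled library 1 and 1.81 in overexpression-labelled library 2. Tk1 over Tk2 was 1.01 and 1.13 in wildtype and 2.51 in overexpression-labelled library 1, and of the pair it was Tk2 that passed the threshold. Impdh2 over Impdh1 went from 1.07 and 1.54 to -0.16, and Ctps over Ctps2 from -1.27 and -1.69 to -0.08. Shmt2 over Shmt1 was level, at 1.78 and 1.42 in wildtype and 1.84 and 1.58 in the overexpression-labelled libraries. Mthfd2 over Mthfd1 was 0.83 and -0.25 in wildtype, -2.49 in overexpression-labelled library 1 and -1.86 in overexpression-labelled library 2, the pair in which both overexpression-labelled libraries shifted by more than 2 log2 units.

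**Figure D3:**
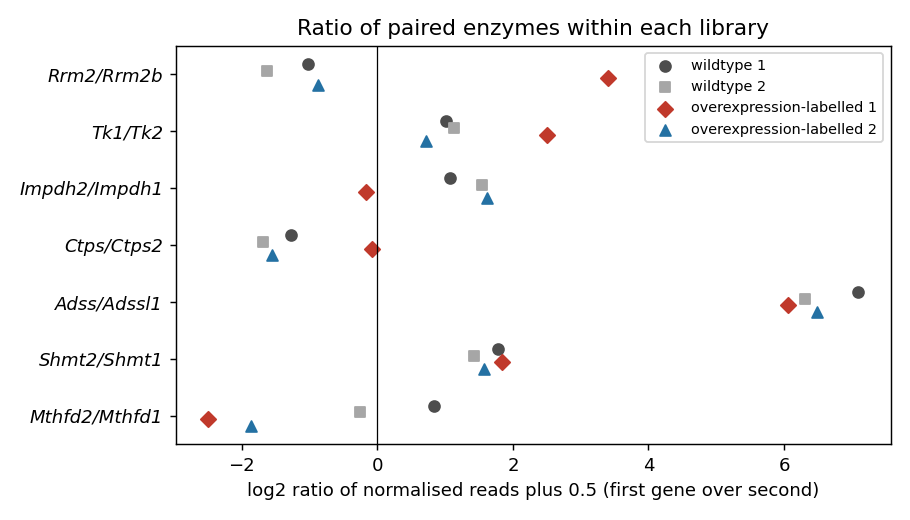
Log2 ratio of normalised reads (plus 0.5) of 7 pairs of related enzymes within each of the 4 libraries. The ratio of Rrm2 to Rrm2b is 3.40 in overexpression-labelled library 1 and below 0 in the other libraries, and Mthfd2 over Mthfd1 is lowest in the overexpression-labelled libraries, at -2.49 and -1.86.

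The order of the members by level per kilobase of exon changed with the library. In wildtype the highest were Hprt (2543 normalised reads per kilobase, mean of 2 libraries), Adss (1717), Paics (936) and Samhd1 (884). Rrm2 was 30th of 37 at 84.2 and Tyms 36th at 13.9. In overexpression-labelled library 1 the order was led by Paics (4874), Hprt (4664), Rrm2 (4265) and Dut (2213), with Tyms 12th at 873 and Samhd1 26th at 327. Lengths are of all annotated exons of a gene joined, which understates genes with many rare exons. Among low neighbours in wildtype, Tyms and Dctd (13.9 and 13.4 per kilobase) did not differ beyond the spread of Dctd.

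Overexpression-labelled library 2 lay close to wildtype in these genes. By limma 0 of 37 members passed, where 0.769% of tested genes rose, 0.888% fell and 1.66% did either; 5 members had an unadjusted p under 0.05, and limma-voom called 2, Mthfd1 and Mthfd2. The members' median difference was 0.044, beside 0.013 over all tested genes, and 27 of 37 members were within 0.3 log2 units of the wildtype mean. Set directly against each other, overexpression-labelled library 1 was higher than overexpression-labelled library 2 in 26 members and lower in 2, Tk2 and Samhd1, where 22.4% of tested genes were higher, 30.1% lower and 52.6% either. The largest of these differences were those of Rrm2 (4.80, SE 0.285, limma adjusted p = 2.9e-08), Tyms (4.48, SE 0.339) and Dck (3.76, SE 0.249). Mthfd2 did not differ between them (0.24, SE 0.340, adjusted p = 0.576). With no filter on low values, 10 of the 28 calls were kept, in a fit that called 13.9% of all genes.

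Genes of division moved with the members. In overexpression-labelled library 1, all 25 DNA replication genes (median difference 2.14) and all 20 mitosis genes (median 3.95) lay above the wildtype mean. So did 32 of 37 members (median 1.27) and 5717 of all 12617 tested genes (median -0.15). Pcna, the replication clamp, had 4451 and 5069 normalised reads in wildtype, 19808 in overexpression-labelled library 1 and 6125 in overexpression-labelled library 2, and the proliferation marker Mki67 had 2265, 2504, 60402 and 4302. In overexpression-labelled library 2 the difference of Mki67 was 0.84. The median there was -0.017 for the DNA replication genes and 0.37 for the mitosis genes, beside 0.013 over all tested genes. Of 16 tested MYC and E2F factors and their partners, 11 were higher in overexpression-labelled library 1 and 5 lower (median difference 0.94). E2f8 (4.40) and E2f7 (3.45), repressors of the family, led the rises. The largest falls were those of Mycl (0 reads, at least 14.7-fold lower with a floor of 3 reads) and E2f5 (-1.0). Myc, named after its values were seen, had 12119 and 20768 normalised reads in wildtype. Its level was 9947 in overexpression-labelled library 1 (difference -0.67) and 30353 in overexpression-labelled library 2 (0.93). The part of these factors in the members' values was not tested.

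Other genes of nucleotide supply both rose and fell in overexpression-labelled library 1, where 26.8% of all tested genes rose and 34.4% fell. Of 4 tested genes of phosphoribosyl pyrophosphate supply 3 rose and 0 fell, with Prps2, a synthetase, up by 1.52 and its regulator Prpsap1 by 1.12. Of 17 genes of purine salvage and breakdown 7 rose and 3 fell. Pnp, purine nucleoside phosphorylase, went from 767 and 1017 normalised reads to 14012 (15.7-fold, difference 3.90, SE 0.187), and Mtap, which salvages methylthioadenosine, rose by 2.62. Nt5e, the surface 5'-nucleotidase CD73, fell from 571.8 and 536.2 to 18.8 (-3.22, SE 0.326) and Xdh, xanthine dehydrogenase, from 155.4 and 163.1 to 4.7 (-2.25). Of 7 genes of pyrimidine salvage and breakdown 3 rose and 3 fell. Uck2, uridine-cytidine kinase, rose by 1.76 and Nt5m by 1.32, and the breakdown genes Tymp and Upb1 had 0 reads there, which makes them at least 14.7-fold and 7.02-fold lower by the same floor, which covers counting error alone.

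Kinases, transporters and folate genes were counted in the same library, beside the same shares of all genes. Of 15 nucleotide kinases 9 rose and 2 fell, with Ak6 (3.39) and Ak3 (2.36) up, Ak5 down (-1.46) and Ak8 at 0 reads (at least 10.5-fold lower). Of 6 nucleoside transporters 2 rose and 3 fell. Slc29a1, the equilibrative transporter ENT1, rose by 3.14 from 217.2 and 157.5 normalised reads to 2078, and Slc29a2 by 1.01. Slc29a3 fell by 1.48, and Slc28a1 had 0 reads (at least 6.78-fold lower). Of 18 genes of folate handling and glycine cleavage 4 rose and 5 fell, which is near the shares of all genes. Slc19a1, the reduced folate carrier, rose from 181.3 and 257 normalised reads in wildtype to 898.3 (1.8, SE 0.305), with 277.6 in overexpression-labelled library 2. The glycine cleavage genes parted, with Gcsh up by 2.16 and Gldc at 0 reads (at least 10.1-fold lower), and Aldh1l2 fell by 1.46. Cth, of the methionine cycle list and named after its values were seen, was left out of testing by the filter. It had 10 and 0 normalised reads in wildtype, 504.3 in overexpression-labelled library 1 and 0 in overexpression-labelled library 2. Of 6 methionine cycle genes 3 rose and 1 fell, with Ahcy (2.29) and Ahcyl1 (1.31) up and Mat2a, which makes S-adenosylmethionine, down (-1.12). In overexpression-labelled library 2 the only call in these lists of nucleotide, folate and methionine genes was Ahcyl2, up by 1.5 (SE 0.186, limma adjusted p = 0.00241), a call lost with no filter on low values.

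ATF4 is a factor of the amino acid response that also acts on the serine genes and Mthfd2. It and 15 genes known as its targets were mostly lower in overexpression-labelled library 1. Of 16, 10 fell and 3 rose (median difference -1.41), against 34.4% falls over all tested genes. Atf4 itself, named after its values were seen, had 9197 and 8375 normalised reads in wildtype, 4973 in overexpression-labelled library 1 and 7271 in overexpression-labelled library 2, and fell in overexpression-labelled library 1 (-0.81, SE 0.134, limma adjusted p = 1.66e-04). Sesn2 fell from 1257 and 1175 normalised reads to 42.2 (-3.77, SE 0.266) and Chac1 from 647.5 and 566.6 to 25.8 (-3.15, SE 0.318), while Atf5 rose by 2.08 and Ddit4 by 1.22. In overexpression-labelled library 2, Chac1 fell by 1.76 (SE 0.281, limma adjusted p = 0.00997) and Slc7a5 by 0.88 (adjusted p = 0.0487), and 0 of the 16 rose. With no filter both calls were lost, and that of Slc7a5 also with a robust prior, on log2 of normalised reads, under totals without Rn45s and under recomputed size factors. Both overexpression-labelled libraries lay below both wildtype libraries in 8 of the 16, where 23% of tested genes did so. Phgdh, Psat1, Psph and Shmt2 rose in overexpression-labelled library 1 and Mthfd2 fell. The part of ATF4 in the members' values was not tested.

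**Figure D4:**
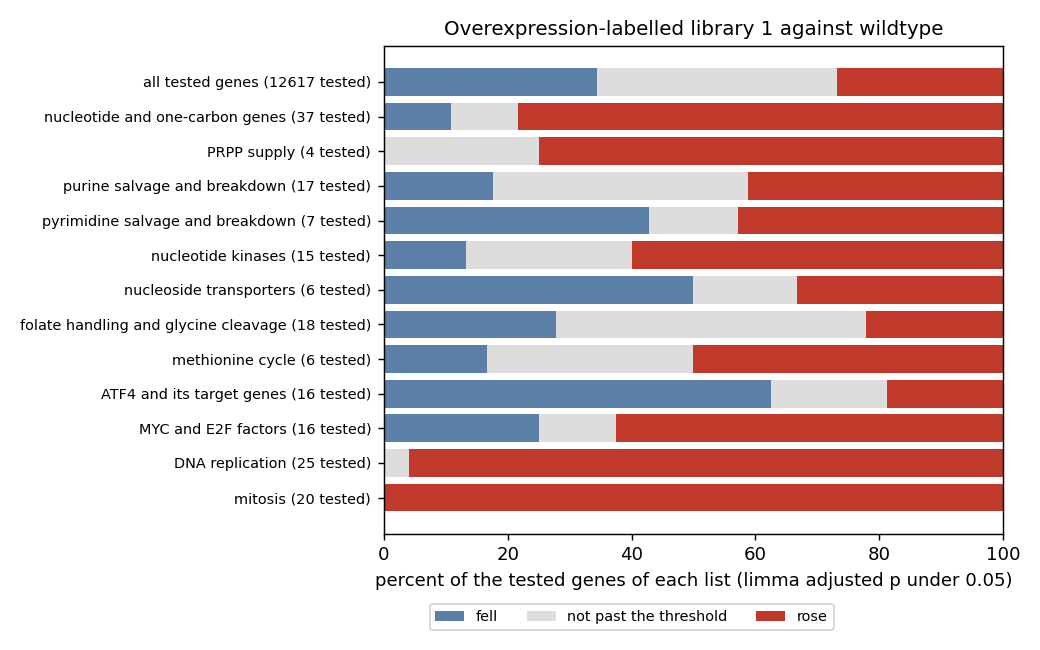
Percent of the tested genes of each list that rose, fell or did not pass in overexpression-labelled library 1 against wildtype (limma adjusted p under 0.05). Of the 37 nucleotide and one-carbon genes 29 rose and 4 fell, the mitosis genes all rose, and of ATF4 and its target genes 10 of 16 fell.

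Markers of other cells also moved. The 9 T and NK cell markers summed to 2913 and 3029 normalised reads in wildtype, 145 in overexpression-labelled library 1, where 2 of 9 were at 0 reads, and 2016 in overexpression-labelled library 2. The 7 plasmacytoid dendritic cell markers summed to 29062, 23659, 7227 and 24021 in the same order of libraries, of which 1, Klk1, was at 0 reads in overexpression-labelled library 1. Tcf4 and Irf8, which B cells also express, made up most of these sums, and the more specific Siglech stood at 2249, 887.2, 9.4 and 1020 and Ccr9 at 1950, 1050, 28.1 and 700.9. The 10 neutrophil markers summed to 249, 4295, 5041 and 64638, with 5 at 0 in wildtype library 1 and 0 at 0 in overexpression-labelled library 2. The 7 monocyte and macrophage markers summed to 2305, 2979, 1013 and 9717, with 3 at 0 in overexpression-labelled library 1. Lyz2, which neutrophils also express, was 683.4, 1318, 891.3 and 7964 of these, while Csf1r stood at 63.8, 69.1, 4.7 and 53.2 and Adgre1 at 147.4, 190.7, 0 and 96.5. Of 9 erythroid markers 5 or 6 were at 0 in each library, and the sum of 13020 in overexpression-labelled library 1 was mostly the transferrin receptor Tfrc, which dividing cells also express. The part of these cells in the members' values was not tested, and in sorted bulk cells a change in the mix of cells and a change in RNA per cell cannot be told apart.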

How the data were processed

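RNA-seq was done on 2 wildtype and 2 Arid5b overexpression libraries of sorted bone marrow B cells. The authors' tools were STAR, HTSeq and DESeq2, with the build mm10, as listed in the submitters' processing notes; versions, settings and annotation are not given in the sources used here. The authors deposited log2 values whose floor, 4.9487, stands for genes without reads. Their form is a variance stabilizing transformation, from which reads were recovered; 100% of values came out whole within 0.01. A misspelled genotype of wildtype library 2 was taken to mean wildtype, and a column header of overexpression-labelled library 1 differs by a digit from its title.

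Genes with 10 reads at the median library size in 2 libraries and 15 reads in all were tested. The planned test for transformed values was used: limma-trend (limma 3.58.1, R 4.3.3) on the deposited values, two-sided, with Benjamini-Hochberg adjustment. It was run on all 4 libraries by label, on each overexpression-labelled library with the wildtype pair, and between the overexpression-labelled libraries. In the fits of a single library the spread came from the wildtype pair and a prior across all tested genes. The fits were also run on simulated reads with few changed genes and the same spread setting for every gene. That setting differs from these libraries, so no support is drawn from it. Members, lists and the rule for named genes (Arid5b, all members, and up to 2 rises and 2 falls of each list with Mki67 and Pcna) were chosen with earlier results of these data known; the promoter motifs were chosen after the members' values were seen. One gene of the folate handling list and 1 B lineage marker are not reported here, and the counts and sums of those lists leave them out. Gene positions and exon lengths are from GENCODE M21 and promoters from RefSeq. Alternatives were the filter, the scaling, the log2 scale, limma-voom, a robust prior and leaving out libraries.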

Additional observations from a re-analysis of the deposited data

How the results depend on the processing

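With both groups compared, 0 members were called under each alternative of filter, scaling, log2 scale, voom and prior; leaving out 1 library gave 0 to 33, where 33 came without overexpression-labelled library 2 and 0 without each other library. Gmps was at -0.04 in that comparison and ran from -0.44 without overexpression-labelled library 1 to 0.37 without overexpression-labelled library 2. For overexpression-labelled library 1 the count was 33 and stayed between 30 and 33, except at 14 with no filter on low values. The median difference was 1.33 without wildtype library 1 and 1.26 without wildtype library 2. For overexpression-labelled library 2 the count was 1 with library totals (Mthfd2) and 2 by limma-voom. Between the overexpression-labelled libraries it was 28, ran from 26 to 28, and was 10 with no filter. Other scalings moved the median of all genes in overexpression-labelled library 1 by 0.1027 (recomputed size factors), 0.1324 (library totals) and 0.1792 (totals without Rn45s) against wildtype. All tested genes then split into 3681 rises and 3973 falls, 3932 and 4012, and 3933 and 3708, beside 3377 and 4344. With no filter on low values they were 1510 and 1132 of 17905 genes in overexpression-labelled library 1, 1118 and 1368 between the overexpression-labelled libraries, and 0 in overexpression-labelled library 2 (2316 at an unadjusted limma p under 0.05), where 97 rose and 112 fell with the filter and limma-voom called 371 and 243. No paired analysis was possible because the labels give no replicate numbers shared between the groups. Depth limits Dctd, Adssl1, Tyms and Dhodh, with under 50 reads in some library.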
